A study of Mus musculus with 4 samples.

Results

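A set of 10 genes that restrain inflammatory signalling, or tune the stability of inflammatory mRNAs, were followed in mouse bone-marrow-derived macrophages (BMDMs). They were chosen by name: Tnfaip3, Tnip1, Tnip2 and Cyld from the ubiquitin side, and Zc3h12a, Zc3h12c, Zfp36, Zfp36l1, Rc3h1 and Arid5a from the mRNA side. These are 10 of the 21878 genes listed, and all 10 were among the 12494 tested. Macrophages from C57BL/6 mice, 8 weeks old per the labels, had been cocultured for 48 h with MC38, a mouse colon cancer cell line kept in a separate insert. RNA-seq was deposited for 2 libraries of wild-type (WT) macrophages and 2 of macrophages from anti-Act1 mice, a macrophage-specific knockdown of Act1, which couples the IL-17 receptor to TRAF6. Every library came from cocultured cells, so that the comparison is anti-Act1 against WT within coculture, and the promoter driving the knockdown is not given in the sources used here. One figure legend states a shorter coculture than the labels do. The question was how the genotype of the macrophage changes its transcriptome next to tumour cells.

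NF-κB signalling is carried by ubiquitin chains that assemble kinase complexes below the TNF, IL-1 and Toll-like receptors, and enzymes that trim or edit these chains, such as A20 and CYLD, switch it off. At the mRNA end, many cytokine transcripts carry AU-rich elements or stem-loops in their 3′UTR, which are read by TTP and its relatives, by Regnase-1 and by Roquin-1 and lead to deadenylation or cleavage. Several of these brakes are themselves NF-κB targets and so act as feedback in activated macrophages.

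Traf3ip2, which encodes Act1, was measured first as a check of the labels. The paper reports Act1 as strongly reduced in BMDMs of anti-Act1 mice, with a legend that names neither RNA nor protein. Transcript counts do not measure the protein. Levels are given as CPM, a gene's count scaled to its library's TMM-adjusted size. The libraries labelled anti-Act1 held 9.63 and 7.84 CPM of it, and those labelled WT held 6.98 and 7.54 CPM. The transcript was therefore not lower under the knockdown label: the log2 fold change, anti-Act1 over WT throughout, was 0.27 ± 0.12 (SE, n = 2 per group; 95% interval 0.02 to 0.51, edgeR adjusted p = 0.117), and it passed the threshold as a rise without anti-Act1 replicate 2 (0.41, adjusted p = 0.0343). Totals of 55435063 to 75062945 counts meant that 3 counts, taken as the upper limit for a gene at 0, corresponded to 0.0395 to 0.0549 CPM, for counting error only. The 8 macrophage markers summed to 24570 to 25551 CPM in WT and 25415 to 26254 CPM in anti-Act1 libraries (Cd14 rose, Mertk and Itgam fell and 5 did not pass the edgeR test). Most of each sum was Lyz2, at 16809 and 15809 CPM in WT and 17133 and 17734 CPM in anti-Act1 libraries. Only 2 of the 8 had a log2 fold change above 0. The 8 epithelial markers, 4 of them at 0 in every library, summed to at most 0.464 CPM. The neutrophil list, 6 genes, summed to 5.78 to 6.04 CPM in WT and 6.37 to 7.16 CPM in anti-Act1 libraries (S100a8 rose by 0.66 and S100a9 changed by -1.42 on the log2 scale). The fibroblast list, also 6 genes, summed to 1.30 to 1.55 CPM in WT and 1.89 to 2.19 CPM in anti-Act1 libraries. Most of that sum was Pdgfrb, at 1.22 and 1.15 CPM in WT and 2.02 and 1.41 CPM in anti-Act1 libraries (edgeR adjusted p = 0.156). The part of either list in the results was not tested. The 4 Y-linked genes summed to 228 to 246 CPM in WT libraries and to 0 to 0.0162 CPM in anti-Act1 libraries, so that genotype and the presence of Y-linked transcripts cannot be told apart. In bulk RNA, fewer cells expressing a gene and less RNA per cell cannot be told apart either.

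The genes spanned a wide range of levels, compared here per gene length as the deposited FPKM averaged over the 4 libraries. The AU-rich-element binding pair was most abundant, Zfp36l1 at 153.7 and Zfp36 at 113.8 FPKM, above 96.6% and 95.3% of tested genes. Tnip1 followed at 33.0, Tnfaip3 at 21.2, Tnip2 at 19.2 and Zc3h12a at 15.2 FPKM. Lower still were Cyld at 7.19, Rc3h1 at 6.81, Arid5a at 3.75 and Zc3h12c at 1.54 FPKM, the last above 22.7% of tested genes. Over the 4 libraries the ranges of Tnfaip3 and Tnip2 overlapped, as did those of Cyld and Rc3h1, while the other neighbours did not overlap. Within each of the 4 libraries Cyld was slightly above Rc3h1. Tnfaip3 was below Tnip2 in both WT libraries and above it in both anti-Act1 libraries.

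**Figure D1:**
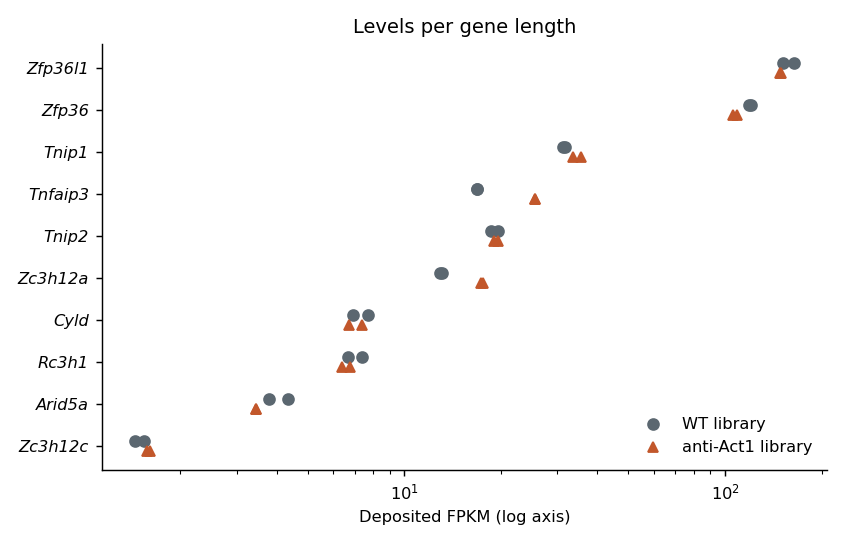
Deposited FPKM of each gene on a log axis, ordered by the mean over the 4 libraries; circles are WT libraries and triangles anti-Act1 libraries. Zfp36l1 and Zfp36 lie above 100 FPKM in every library, Zc3h12c lies below 2 FPKM, and the genotypes separate most clearly for Tnfaip3 and Zc3h12a.

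Of the 10 genes, 3 were higher in anti-Act1 macrophages (Tnfaip3, Zc3h12a and Tnip1), 0 were lower and 7 did not pass the edgeR quasi-likelihood test at an adjusted p of 0.05. Over all tested genes 20.7% passed in either direction, 10.9% as higher and 9.76% as lower. DESeq2 called the same 3 higher and also Zfp36 lower (16.6% of its genes passed in either direction), and at an unadjusted p of 0.05 edgeR had 2 of the 10 as lower, Zfp36 and Arid5a. The median log2 fold change was 0.0047 over the 10 genes and -0.0046 over all tested genes. In 6 of the 10 the 2 groups did not overlap in CPM, against 57.1% of all tested genes. The p-values rest on the spread between 2 libraries per group, with each gene's variance drawn toward that of the other tested genes. They are thus not a measure of one gene's replicate spread alone. An exact permutation test of 2 against 2 could not go below p = 0.33.

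**Figure D2:**
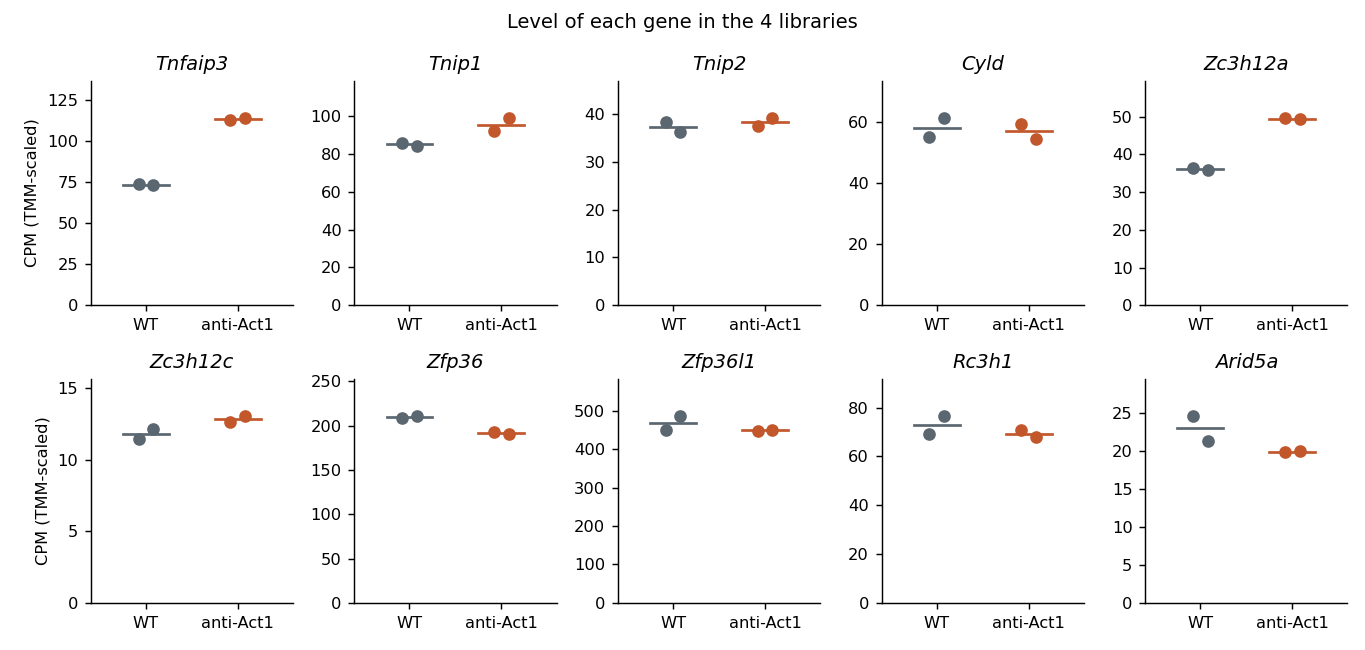
TMM-scaled CPM of each gene in the 4 libraries, one panel per gene with its own axis from 0; points are libraries and bars the group means. Tnfaip3 and Zc3h12a separate by far more than their replicates differ, and Zfp36 by a small amount that still exceeds its replicate differences. In Tnip1, Zc3h12c and Arid5a the groups do not overlap, but the gap is smaller than the larger replicate difference. Tnip2, Cyld, Zfp36l1 and Rc3h1 overlap.

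The promoters were searched for motifs of the factors that act in activated macrophages. RefSeq (GRCm38.p6) gave 12 windows, from 250 bases before to 50 bases after a start site, for the 10 genes. The NF-κB (κB) consensus was searched on both strands, with TGANTCA (AP-1), TGACGTCA (CRE), TTCNNNGAA (STAT) and the interferon-response motif. The κB consensus was found in the windows of Tnfaip3, Tnip1 and Cyld, and in 4.505% of all 32851 windows. The 250 bases before the start of Tnfaip3, Tnip1, Cyld and, as a gene that rose with no match, Zc3h12a are shown 5′ to 3′ on the gene's strand, with every matched base in capitals.
Tnfaip3, chr10:19015411-19015660, minus strand: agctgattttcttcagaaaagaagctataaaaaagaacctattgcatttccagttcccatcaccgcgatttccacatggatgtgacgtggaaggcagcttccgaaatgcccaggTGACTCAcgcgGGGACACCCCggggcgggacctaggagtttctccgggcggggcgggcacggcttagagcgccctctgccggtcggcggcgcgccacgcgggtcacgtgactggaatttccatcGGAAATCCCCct
Tnip1, chr11:54962941-54963190, minus strand: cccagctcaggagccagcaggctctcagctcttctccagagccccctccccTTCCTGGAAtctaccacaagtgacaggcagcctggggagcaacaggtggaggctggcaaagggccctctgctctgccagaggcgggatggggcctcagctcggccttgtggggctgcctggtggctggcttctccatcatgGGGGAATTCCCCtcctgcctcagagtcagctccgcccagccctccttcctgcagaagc
Cyld, chr8:88696778-88697027, plus strand: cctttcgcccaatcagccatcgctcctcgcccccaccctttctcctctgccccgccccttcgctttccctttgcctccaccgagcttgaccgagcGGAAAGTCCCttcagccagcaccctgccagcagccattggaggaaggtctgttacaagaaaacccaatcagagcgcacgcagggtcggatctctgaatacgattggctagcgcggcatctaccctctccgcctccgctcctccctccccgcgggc
Zc3h12a, chr4:125127882-125128131, minus strand: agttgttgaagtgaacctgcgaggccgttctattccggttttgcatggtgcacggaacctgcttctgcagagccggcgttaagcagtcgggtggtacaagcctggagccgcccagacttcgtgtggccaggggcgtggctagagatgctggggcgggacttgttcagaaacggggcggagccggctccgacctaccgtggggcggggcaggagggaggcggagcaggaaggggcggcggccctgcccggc
The upstream Tnfaip3 window held 2 κB matches, starting 125 and 12 bases before the start site, and an AP-1 match just ahead of the first of them. In Tnip1 one palindromic run gave 3 overlapping κB matches between 58 and 47 bases before the start, and a STAT match lay farther out. Cyld held 1 κB match, 155 to 146 bases before its start, and none of the motifs was found in the Zc3h12a window. TGANTCA also occurred in Rc3h1 and Zfp36l1 (7.808% of all windows) and TTCNNNGAA in Tnip2 and Zfp36 (8.298%), while TGACGTCA (1.79%) and the interferon-response motif (3.443%) occurred in 0 of the 12 windows. A match is a description of these letters and not of binding, and 2 of the 3 genes with a κB match rose while Cyld did not pass the test.

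Tnfaip3 (GENCODE M21, GRCm38 chr10:19000910-19015657, minus strand) encodes A20, the ubiquitin-editing enzyme that shuts down NF-κB signalling, and it changed most of the 10. WT libraries stood at 73.5 and 72.9 CPM (4750 and 5533 counts) and anti-Act1 libraries at 113 and 114 CPM (6950 and 6200 counts). The groups did not overlap, at 73.2 ± 0.436 against 113 ± 0.709 CPM (SD, n = 2 each, too few to fix an SD well). A20 mRNA was thus 1.54-fold higher in anti-Act1 macrophages (95% interval 1.43 to 1.67, log2 fold change 0.63 ± 0.05 SE, edgeR adjusted p = 5.31e-13), and was called in all 15 alternatives, at 0.57 to 0.64.

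Tnip1 (chr11:54910785-54962917, minus strand) encodes ABIN1, an adaptor that brings A20 to ubiquitin chains. It rose less, from 86.2 and 84.3 CPM in WT to 92.1 and 99.0 CPM in anti-Act1 libraries. No library overlapped the other group, and the rise was 1.12-fold (95% interval 1.04 to 1.21, log2 fold change 0.16 ± 0.06 SE, edgeR adjusted p = 0.0274). The call was lost in 6 of 15 alternatives, among them without anti-Act1 replicate 2 (0.11, adjusted p = 0.405) and without WT replicate 2 (0.15, adjusted p = 0.0983), and the adjusted p over all of them ranged from 0.0217 to 0.405.

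Tnip2 (chr5:34496087-34513991, minus strand), which encodes the related adaptor ABIN2, stood at 38.3 and 36.2 CPM in WT and 37.5 and 39.1 CPM in anti-Act1 libraries. These values interleaved, and the log2 fold change was 0.04 (95% interval -0.09 to 0.17, edgeR adjusted p = 0.744). Cyld (chr8:88697028-88751945, plus strand), the deubiquitinase that removes K63-linked and linear chains, had 55.2 and 61.3 CPM in WT and 59.6 and 54.6 CPM in anti-Act1 libraries. Its groups overlapped too, with a log2 fold change of -0.03 (95% interval -0.15 to 0.10, edgeR adjusted p = 0.802). For both genes the interval leaves room for a change of about 0.1 to 0.2 on the log2 scale in either direction, and the sign turned when single libraries were left out.

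Zc3h12a (chr4:125118423-125127840, minus strand) encodes Regnase-1, the endonuclease that cleaves stem-loops in the 3′UTR of Il6 and other cytokine mRNAs. It had 36.5 and 35.8 CPM in WT libraries (2359 and 2716 counts) and 49.5 and 49.4 CPM in anti-Act1 libraries (3060 and 2698 counts). Both anti-Act1 libraries were above both WT libraries, at 49.5 ± 0.0995 against 36.1 ± 0.513 CPM (SD, n = 2 each). An SD from 2 libraries is itself uncertain, and the edgeR interval is the wider guide. Regnase-1 mRNA was 1.37-fold higher (95% interval 1.25 to 1.49, log2 fold change 0.45 ± 0.06 SE, edgeR adjusted p = 1.52e-07) and stayed past the threshold in all 15 alternatives, at 0.40 to 0.47.

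Zc3h12c (chr9:52111344-52168572, minus strand), a paralogue with the same type of nuclease domain, was the least abundant of the 10, at 11.5 and 12.2 CPM in WT and 12.7 and 13.1 CPM in anti-Act1 libraries. All anti-Act1 values were above the WT values, but the gap between the groups was smaller than the difference between the WT replicates. The log2 fold change of 0.12 (95% interval -0.07 to 0.32) did not pass the edgeR test (adjusted p = 0.427). Of the other paralogues of the family, Zc3h12d fell from 54.5 ± 0.649 CPM in WT to 41.0 ± 1.04 CPM in anti-Act1 libraries (SD, n = 2 each), or by -0.41 ± 0.06 SE in log2 (adjusted p = 8.53e-07), while Zc3h12b, with 17 to 26 counts per library, was too sparse to be resolved (0.41, 95% interval -0.66 to 1.49).

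Zfp36 (chr7:28376784-28380253, minus strand) encodes TTP, which binds AU-rich elements and recruits the CCR4-NOT deadenylase. It stood at 208 and 211 CPM in WT and at 193 and 190.4 CPM in anti-Act1 libraries. Both anti-Act1 libraries lay below both WT libraries, yet the edgeR test did not call the difference of -0.13 on the log2 scale (95% interval -0.23 to -0.03; adjusted p = 0.0656). DESeq2 gave the same size with an adjusted p of 0.0395, and 4 of 15 alternatives called it lower (adjusted p 0.0280 to 0.344 over all 15). In GENCODE M21, 1080 exon bases of Zfp36 lie within the span, introns included, of the opposite-strand antisense gene Gm44710. The exons of Gm44710 were not compared with them, and strand use in the counting is not stated. Whether reads of the pair were mixed is therefore not known.

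Zfp36l1 (chr12:80107754-80113013, minus strand), the paralogue also called BRF1, was the most abundant of the 10 at 450.1 and 486 CPM in WT and 448 and 450.2 CPM in anti-Act1 libraries. WT replicate 2 alone was higher, the groups overlapped, and the log2 fold change was -0.06 (95% interval -0.16 to 0.04, edgeR adjusted p = 0.475). It too has exon bases, 2697, within the span of an opposite-strand gene, Gm26669, whose exons were not compared either. The third paralogue, Zfp36l2, had 481 and 521 CPM in WT and 488 and 473 CPM in anti-Act1 libraries (-0.06, 95% interval -0.16 to 0.04, edgeR adjusted p = 0.458).

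TTP and its relatives recognise the nonamer TTATTTATT (U in place of T in the mRNA), and it is also found in transcripts of the decay factors themselves. In the GENCODE M21 3′UTRs of the 9 genes for which the search is given here, it occurred once in each of Zfp36, Zfp36l1 and Rc3h1, and in 7.198% of 11865 tested genes. Each site is shown with 10 bases on either side and the nonamer in capitals, as DNA of the gene's strand in GRCm38.
Zfp36, chr7:28376951-28376979, minus strand: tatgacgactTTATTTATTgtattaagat
Zfp36l1, chr12:80108167-80108195, minus strand: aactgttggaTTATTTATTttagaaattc
Rc3h1, chr1:160970043-160970071, plus strand: actttactcaTTATTTATTgagatgagga
The site lies 589 bases after the stop codon in Zfp36, 1404 in Zfp36l1 and 2256 in Rc3h1. Among tested genes whose 3′UTR is within 20% of the same length, the nonamer occurred in 4.72% for Zfp36, 8.57% for Zfp36l1 and 25.8% for Rc3h1. None of these 3 genes passed the edgeR test (Zfp36 passed with DESeq2). Zc3h12a and Tnip1, 2 of the 3 genes that rose, had 0 copies in 3′UTRs of 856 and 752 bases. Only 5.47% and 4.59% of tested genes with a 3′UTR of similar length carried the nonamer. Tnip2, Cyld, Zc3h12c and Arid5a, which did not pass the edgeR test, also had 0 copies.

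Rc3h1 (chr1:160906418-160974978, plus strand) encodes Roquin-1, which binds stem-loops in the 3′UTR of Tnf, Icos and other mRNAs. It had 69.3 and 76.5 CPM in WT and 70.8 and 67.9 CPM in anti-Act1 libraries. The groups overlapped and the log2 fold change of -0.07 (95% interval -0.19 to 0.05) did not pass the edgeR test (adjusted p = 0.437). Its paralogue Rc3h2, Roquin-2, stood at 45.6 and 53.0 CPM in WT and 47.5 and 45.8 CPM in anti-Act1 libraries, which overlapped as well (-0.08, adjusted p = 0.436).

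Arid5a (chr1:36307733-36324029, plus strand) works against the decay factors: the protein binds the Il6 3′UTR and protects it from Regnase-1. Its mRNA stood at 24.5 and 21.3 CPM in WT and at 19.8 and 19.9 CPM in anti-Act1 libraries. The anti-Act1 libraries were both lower, but WT replicate 1 stood well above WT replicate 2, and the log2 fold change of -0.21 (95% interval -0.37 to -0.05) missed the edgeR threshold (adjusted p = 0.0578). It was called lower in 2 of 15 alternatives, among them without WT replicate 2 (-0.31, adjusted p = 0.0091), whereas without WT replicate 1 the value was -0.10 (adjusted p = 0.503). Per gene length, the ratio of Arid5a to Zc3h12a was 0.330 and 0.292 in the WT libraries and 0.196 and 0.198 in the anti-Act1 libraries. Both anti-Act1 ratios lay below both WT ratios, by -0.66 on the log2 scale and by -0.74 to -0.57 when each library was left out, and the difference was not tested.

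**Figure D3:**
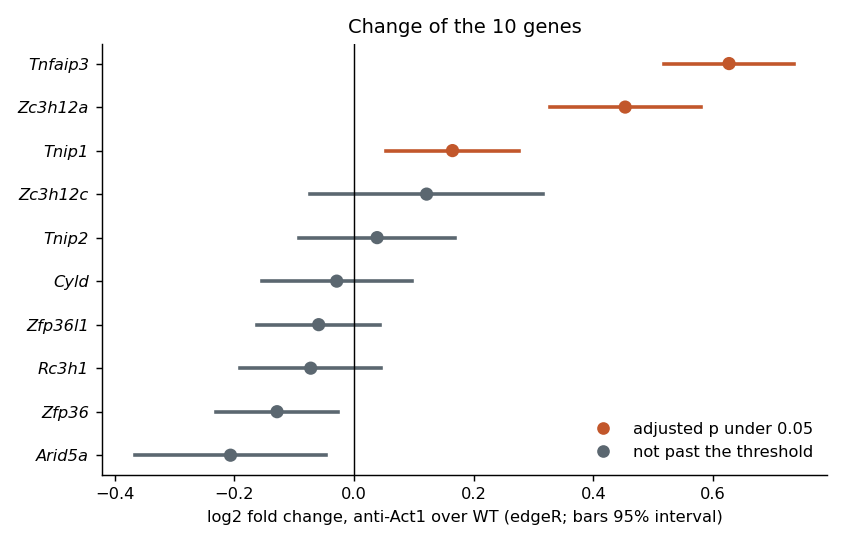
Log2 fold change of the 10 genes, anti-Act1 over WT, with the 95% interval from edgeR; orange marks an adjusted p under 0.05. Tnfaip3, Zc3h12a and Tnip1 lie to the right of 0, and the intervals of Zfp36 and Arid5a lie below 0 without passing the adjusted threshold.

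**Figure D4:**
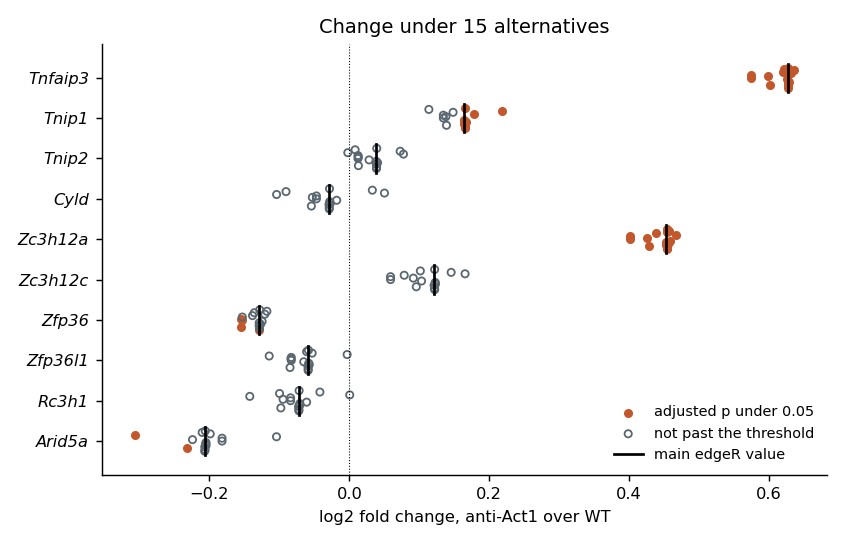
Log2 fold change of the 10 genes, anti-Act1 over WT, under 15 alternatives (points; filled where the adjusted p was under 0.05), with the main edgeR value as a vertical line. All 15 points are filled for Tnfaip3 and Zc3h12a, 9 for Tnip1, 4 for Zfp36, 2 for Arid5a and 0 for the rest.

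The rest of the pathway was described from 4 lists of genes, which were chosen with earlier results of these data known, and no difference between lists was tested. Among 14 other RNA-binding regulators of short-lived mRNAs, 1 rose and 3 fell, with a list median of -0.06 on the log2 scale. Over all tested genes, 20.7% passed in either direction, 10.9% as higher and 9.76% as lower. N4bp1, a relative of the Regnase nucleases, was the one that rose, from 150.3 and 146 CPM in WT to 171 and 164 CPM in anti-Act1 libraries (log2 fold change 0.18, edgeR adjusted p = 0.0107). Beside Zc3h12d, the falls were those of Upf1, the nonsense-mediated decay helicase that also serves Regnase-1 (-0.17, adjusted p = 0.0235), and of Tial1, an AU-rich-element binding translational repressor (-0.17, adjusted p = 0.0272).

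Downstream, 30 genes of deadenylation, decapping and exonucleolytic decay were tested, of which 2 rose, 2 fell and 26 did not pass, with a median of -0.06. The share of all tested genes that passed in either direction was 20.7%. Btg1 rose, from 1153 and 1266 CPM in WT to 1506 and 1390 CPM in anti-Act1 libraries (0.26, edgeR adjusted p = 1.49e-04), and its relative Btg2 fell, from 84.2 and 83.3 to 62.8 and 60.7 CPM (-0.44, adjusted p = 2.92e-08). Both encode BTG/TOB proteins that bind the CCR4-NOT deadenylase. Lsm1, of the decapping activator ring, rose by 0.34 (adjusted p = 0.00194), and Cnot1, the scaffold of CCR4-NOT, changed by -0.18 (adjusted p = 0.00727).

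Of 28 tested genes among the other ubiquitin regulators of NF-κB, 6 rose, 1 fell and 21 did not pass, with a median of 0.03. As a background, 20.7% of all tested genes passed in either direction. Birc3, encoding the ubiquitin ligase cIAP2, stood at 85.4 and 82.4 CPM in WT and at 119 and 117 CPM in anti-Act1 libraries (0.49, edgeR adjusted p = 6.11e-10). Usp18, which removes ISG15 (0.53, adjusted p = 6.33e-10), and Traf6, the ligase that Act1 engages (0.43, adjusted p = 3.36e-08), also rose. Tnip3, the third ABIN gene, went from 26.4 and 24.8 CPM in WT to 37.8 and 34.3 CPM in anti-Act1 libraries (0.49 ± 0.07 SE, adjusted p = 2.79e-07). Thus 2 of the 3 ABIN genes rose, Tnip1 and Tnip3, though the call of Tnip1 was lost in 6 of 15 alternatives. Ripk1, the kinase that A20 deubiquitinates, was the one that fell (-0.17, adjusted p = 0.0128), and Otud7b, the A20-related deubiquitinase Cezanne, did not pass (0.09, 95% interval -0.04 to 0.21).

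Of 24 tested transcripts described as decay targets of the ZFP36 or Regnase-1 family, 15 rose, 3 fell and 6 did not pass, where 20.7% of all tested genes passed in either direction, and the median was 0.37. Il1a stood at 19.6 ± 1.08 CPM in WT and at 50.1 ± 0.104 CPM in anti-Act1 libraries (SD, n = 2 each), or 1.35 higher in log2 (adjusted p = 3.49e-21), and the chemokines Cxcl1 and Cxcl2 rose by 1.46 and 0.95. Tnf rose from 7.18 and 6.26 to 14.1 and 13.1 CPM (1.02 ± 0.11 SE, adjusted p = 3.29e-10). Il6 rested on 4 and 2 counts in WT and 17 and 18 counts in anti-Act1 libraries (2.76, 95% interval 1.12 to 4.40, edgeR adjusted p = 0.00913), and DESeq2 gave it no adjusted p. The 3 that fell were Id1 (-1.66, adjusted p = 1.13e-09), Ccl2 (-0.85, adjusted p = 1.62e-08) and Nfkbid (-0.33, adjusted p = 0.00442). Several of these transcripts are also NF-κB targets, and RNA levels alone do not separate synthesis from decay.

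**Figure D5:**
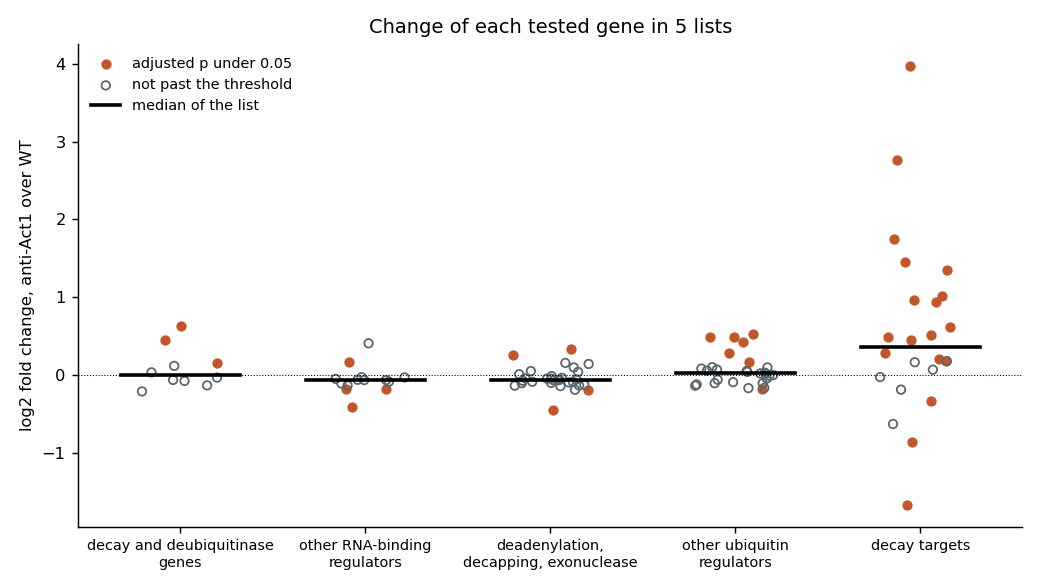
Log2 fold change, anti-Act1 over WT, of each tested gene in 5 lists; filled points passed the edgeR test at an adjusted p of 0.05 and bars are list medians. The highest point, Il23a at 3.97 (named after its value was seen), rests on 0 and 2 counts in WT against 12 and 17 in anti-Act1 libraries and had no adjusted p in DESeq2. The median of the decay targets is 0.37 and the medians of the other lists lie between -0.06 and 0.03.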

How the data were processed

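Libraries were made from total RNA with a NEBNext Ultra kit and sequenced as read pairs. The authors removed adapter and low-quality reads, aligned with TopHat and deposited whole read counts per gene without normalization, and FPKM values, which the authors scaled by gene length and library total. The submitters' processing notes name Bowtie 0.12.2, HTSeq 0.6.1 and 2 genome builds, with no role; positions here come from GENCODE M21 and RefSeq (GRCm38), matched by symbol.

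Counts were tested in R 4.3.3 with edgeR 4.0.16 (TMM, filterByExpr, condition only, two-sided quasi-likelihood test, Benjamini-Hochberg over 12494 genes). Alternatives included DESeq2 1.42.0, its size factors within edgeR, library totals with no composition normalization, other filters (none; at least 10 counts in every library), thinned counts, a replicate block, limma 3.58.1 on log2(FPKM + 1) or log2(FPKM + 0.1), genes of X and Y left out, and each library left out in turn. Tests were checked on simulated counts, with changes larger than those of the 10 genes and the same dispersion for every gene. That check therefore does not bear on calls of small changes. The 3′UTR search for Tnfaip3 is not reported here. Named were the 10 genes, Traf3ip2, paralogues, from each list the 3 smallest adjusted p in each direction past the threshold, and Tnf and Il6. The members and lists were chosen with earlier results of these data known. Replicates of each group differed by more than sampling noise (chi-square per degree of freedom 10.8 in WT and 7.40 in anti-Act1). The study's methods call the 2 samples of a group biological replicates.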

Additional observations from a re-analysis of the deposited data

How the results depend on the processing

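Tnfaip3 and Zc3h12a were called higher in all 15 alternatives; Tnip1 was called in 9, and lost without composition normalization, with limma on FPKM and without WT replicate 2 or anti-Act1 replicate 2. The count of the 10 genes called lower, 0 in edgeR, was 1 with DESeq2, 2 without composition normalization, 1 with limma on log2(FPKM + 1) and 1 on log2(FPKM + 0.1), and 0 to 1 with a library left out (1 without WT replicate 2). Without a filter, limma on log2(FPKM + 1) called 1092 genes in all, 1 other RNA-binding regulator and 1 deadenylation, decapping or exonuclease gene. With each library left out, 1671 to 2543 genes were called in all (lowest without anti-Act1 replicate 2, then 1712 when anti-Act1 replicate 1 was left out), 1 to 6 other RNA-binding regulators (1 without WT replicate 2 or anti-Act1 replicate 1, 2 without anti-Act1 replicate 2) and 2 to 6 deadenylation, decapping and exonuclease genes (2 without anti-Act1 replicate 1). The sign of 3 uncalled genes turned in these fits: Tnip2 ranged from -0.0022 to 0.077, Cyld from -0.10 to 0.050 (0.050 without WT replicate 2, 0.033 without anti-Act1 replicate 2) and Rc3h1 from -0.14 to 0.00054. Fewer samples enter each of these fits, and the lone library of a group is assumed to vary like the other group; the cause of the other differences was not tested.

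Same-numbered libraries did not deviate together over the tested genes (correlation of deviations -0.03). With 2 libraries per group this does not settle whether the numbers pair them. A replicate block left 2406 genes called, against 2586, with 3 of the 10 genes higher and 0 lower as before. Each of the 10 genes had at least 713 counts in every library.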
